A study of Mus musculus with 13 samples.

Results

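The hypoxia response and glycolysis genes described here are a set of 42 named genes: the enzymes and transcription factors that sense oxygen, well known targets of those factors, the transporters and regulators that set glycolytic flux, and the enzymes of glycolysis itself. A member was read from probe sets that carried exactly 1 gene symbol, and where several did, from the probe set with the highest mean over all arrays. In this way 40 of the 42 were measured, among 19938 genes in all. Gpi1 and Eno1 had no such probe set and were not analysed here. RNA came from the small intestine of Apc mutant mice crossed with mice that carry a transgene expressing FPs, an abbreviation left unexplained in the labels. All 3 groups share that cross: 6 arrays hold normal epithelium with low FP expression (FP-low), 4 hold normal epithelium with high FP expression (FP-high), and 3 hold intestinal adenomas. Normal epithelium was taken next to adenomas, so it is no tissue of tumour-free mice, and the labels give neither the age nor the Apc allele nor the promoter of the transgene. Single crypts were collected in glass capillaries 40 µm wide, their RNA was amplified, and each sample was read on an Affymetrix Mouse Gene 1.0 ST array. Values are log2 levels, so a difference of 1 is a doubling.

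Cells sense oxygen through prolyl hydroxylases (Egln1, Egln2 and Egln3) that mark the alpha subunits of hypoxia-inducible factor, Hif1a and Epas1, for destruction by the von Hippel-Lindau protein (Vhl). When oxygen is low the alpha subunits persist, pair with Arnt and switch on genes for glucose uptake, glycolysis, acid export and angiogenesis, and Egln3 is itself a target. The factor is controlled mainly at the level of protein, whereas the arrays measure messenger RNA only. In the intestine the epithelium lies on a steep oxygen gradient between its blood supply and the lumen, and many tumours take up glucose at a high rate.

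With 3 to 6 arrays a group the precision is limited. Since no label ties arrays to animals, p-values measure only the spread between these samples, and some of that spread may be technical. In whole crypts and adenomas, fewer cells of a type and less RNA per cell cannot be told apart. FP-high replicate 1 stood apart: its levels spread over a standard deviation of 1.21 against 1.89 to 2.10 on the other 12 arrays, and its members lay at a median of -0.66 from the FP-low mean, against -0.15 to 0.19 elsewhere. Results that rest on it most are given with and without it, and other values are from all arrays. Epcam, an adhesion molecule of epithelial cells, ran from 9.03 to 9.58 in FP-low, from 7.58 to 9.24 in FP-high and from 9.24 to 9.33 in adenomas. The mean of 12 epithelial markers, Epcam included, was 6.24 on FP-high replicate 1 and 8.32 to 8.84 on the other FP-high arrays. It ran from 7.99 to 8.73 in FP-low and from 8.02 to 8.70 in adenomas. Of the 12, 6 were higher and 6 lower in adenomas than in normal epithelium, with none called. Xist was above a level of 6 on 3 of 3 adenoma arrays, 1 of 4 FP-high arrays and 1 of 6 FP-low arrays, and its part in the results was not tested.

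Promoter sequence is shown for the 5 members with the smallest p-values between adenomas and normal epithelium, because these genes carry the main result and the core of a hypoxia response element can be looked for in their letters. Each line gives the 250 bases before an annotated start, 5′ to 3′ on the gene's strand, from RefSeq on GRCm38.p6. Capitals mark ACGTG or GCGTG on either strand; CACGTG reads as ACGTG on both strands and counts as a pair of matches. The windows are Hif1a chr12:73907617-73907866 (plus strand), Egln3 chr12:54203875-54204124 (minus), Car12 chr9:66713436-66713685 (plus), Slc2a1 chr4:119108495-119108744 (plus), and for the 2 starts of Pfkfb3 chr2:11553930-11554179 and chr2:11502091-11502340 (both minus).
Hif1a: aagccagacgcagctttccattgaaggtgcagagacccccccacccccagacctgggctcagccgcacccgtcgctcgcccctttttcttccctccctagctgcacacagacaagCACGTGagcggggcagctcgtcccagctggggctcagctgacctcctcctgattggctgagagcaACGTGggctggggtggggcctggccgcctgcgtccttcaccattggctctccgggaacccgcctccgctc
Egln3: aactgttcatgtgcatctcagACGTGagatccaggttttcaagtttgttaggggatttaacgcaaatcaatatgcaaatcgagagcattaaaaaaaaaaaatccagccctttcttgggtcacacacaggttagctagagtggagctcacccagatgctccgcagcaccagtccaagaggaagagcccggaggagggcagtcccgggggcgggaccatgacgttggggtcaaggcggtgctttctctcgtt
Car12: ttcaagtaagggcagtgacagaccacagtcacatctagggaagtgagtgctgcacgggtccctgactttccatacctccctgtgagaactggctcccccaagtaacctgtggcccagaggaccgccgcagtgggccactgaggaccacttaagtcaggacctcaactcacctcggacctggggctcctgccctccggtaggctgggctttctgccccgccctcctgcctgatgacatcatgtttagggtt
Slc2a1: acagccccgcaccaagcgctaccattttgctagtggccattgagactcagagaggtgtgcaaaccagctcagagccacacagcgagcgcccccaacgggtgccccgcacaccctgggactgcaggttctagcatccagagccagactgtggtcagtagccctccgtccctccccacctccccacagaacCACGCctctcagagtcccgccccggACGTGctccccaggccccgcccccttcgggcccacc
Pfkfb3, first window: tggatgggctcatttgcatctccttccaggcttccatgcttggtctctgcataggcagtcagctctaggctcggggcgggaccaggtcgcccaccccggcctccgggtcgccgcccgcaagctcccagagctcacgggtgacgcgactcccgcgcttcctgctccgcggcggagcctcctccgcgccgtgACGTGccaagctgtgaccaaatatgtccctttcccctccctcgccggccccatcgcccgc
Pfkfb3, second window: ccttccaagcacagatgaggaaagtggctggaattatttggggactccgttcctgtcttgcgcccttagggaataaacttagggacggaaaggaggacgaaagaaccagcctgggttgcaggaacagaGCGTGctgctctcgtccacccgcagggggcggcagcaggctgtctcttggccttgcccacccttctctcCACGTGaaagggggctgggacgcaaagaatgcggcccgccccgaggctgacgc
Hif1a held 3 matches, at 135, 134 and 70 bases before its start, and Egln3 held 1 at 229 bases. Slc2a1 held matches at 61 and 36 bases, the first Pfkfb3 window 1 at 60 bases, and the second Pfkfb3 window 3 at 122, 53 and 52 bases. Car12 held none in this window, which says only that these letters are not there. Of the 40 measured members 36 had a RefSeq window, 53 windows in all. With the 50 bases after the start included, 40 of these 53 windows (75.5%) held a match, against 43.8% of all 32851 windows of the same length. Over all windows ACGTG occurred in 19.6%, GCGTG in 32.4% and CACGTG in 7.15%. A match is a run of letters, not evidence of binding.

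Among the genes of oxygen sensing, the transcript of the oxygen-regulated subunit Hif1a rose in adenomas, and that of the prolyl hydroxylase Egln3 was also above normal epithelium on every array without passing the threshold. Their partners and relatives did not pass the test. Hif1a was at 9.51, 9.19 and 9.18 in the adenomas, at 4.60, 6.45, 7.66 and 7.17 in FP-high, and at 6.76, 7.13 and 7.82 (lowest, median and highest) in FP-low. All 3 adenomas lay above all 10 normal arrays, and the lowest value of all was FP-high replicate 1. Normal epithelium here and below is the mean of both normal groups, each weighted equally. Against it Hif1a was higher by a log2 difference of 2.43 ± 0.48 (SE), or 5.37-fold, with an adjusted p of 0.0325 (limma, Benjamini-Hochberg over 23410 probe sets). The difference was 2.82 ± 0.55 from FP-high (adjusted p = 0.0341) and 2.03 ± 0.51 from FP-low (adjusted p = 0.143, or 0.0031 without FP-high replicate 1).

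The Hif1a difference from normal varied little when single arrays were left out, and that from FP-high varied more. The calls did not hold in all fits. With the replicate number as a block, a pairing the labels do not state, the difference from normal was 2.51 (limma adjusted p = 0.146). That from FP-high was 2.91 (adjusted p = 0.123). Leaving out 1 array at a time kept the difference from normal between 2.11 and 2.62, but the call held in 5 of 13 such fits, with limma adjusted p-values from 0.00171 to 0.201. The call from normal was lost without FP-high 2 (adjusted p = 0.0574), FP-low 1 (0.0592), FP-low 2 (0.0613), FP-low 4 (0.0598), FP-low 5 (0.056), adenoma 1 (0.201), adenoma 2 (0.152) or adenoma 3 (0.1). Leaving out FP-high replicate 1 gave the smallest adjusted p, 0.00171, at a difference of 2.11 ± 0.27. The call from FP-high likewise held in 5 of 13 fits, at differences from 2.20 to 3.22, and was lost without FP-high 2 (limma adjusted p = 0.0747), FP-low 1 (0.0557), FP-low 2 (0.0536), FP-low 4 (0.0554), FP-low 6 (0.0513), adenoma 1 (0.154), adenoma 2 (0.12) or adenoma 3 (0.0985).

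Egln3, whose product hydroxylates the alpha subunits, was at 7.36, 7.85 and 6.44 in the adenomas, at 3.23, 5.81, 6.14 and 3.55 in FP-high, and at 3.37, 4.17 and 5.04 (lowest, median and highest) in FP-low. The adenomas again lay above every normal array, and the normal arrays themselves ran from 3.23 to 6.14. The difference from normal was 2.77 ± 0.60, or 6.81-fold, with a limma adjusted p of 0.052. Against FP-low alone the difference was 3.00 ± 0.64 (limma adjusted p = 0.0689) and against FP-high alone 2.53 ± 0.69 (0.142). Without FP-high replicate 1 the difference from normal was 2.53 ± 0.54 and passed, with a limma adjusted p of 0.0337; it also passed without FP-high 2 (2.96, adjusted p = 0.0443) or FP-high 3 (3.01, adjusted p = 0.0252). Against FP-low alone Egln3 passed without FP-high 1 (limma adjusted p = 0.0199) or FP-high 3 (0.0413). Within each normal group Egln3 was higher on the arrays where enterocyte markers were high. The mean of 11 enterocyte markers was 10.16 and 10.74 on FP-high 2 and 3, where Egln3 was highest, and 6.98 and 8.59 on FP-high 1 and 4. In FP-low it was 9.60, 9.42 and 8.89 on replicates 1, 2 and 4, where Egln3 was at 4.85, 5.04 and 4.53, and 7.37, 8.04 and 6.96 on replicates 3, 5 and 6, where Egln3 was at 3.81, 3.66 and 3.37. The mean of the epithelial markers split the same arrays alike. It was 8.70 and 8.84 on FP-high 2 and 3, and 6.24 and 8.32 on FP-high 1 and 4. In FP-low it was 8.73, 8.57 and 8.50 on replicates 1, 2 and 4, and 8.31, 7.99 and 8.02 on replicates 3, 5 and 6. On the adenomas the enterocyte mean was 8.25, 8.61 and 8.21, inside the normal range of 6.96 to 10.74. The part of enterocyte or overall epithelial signal in the Egln3 result was not tested.

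The other hydroxylases did not pass the test. Egln1, the main oxygen sensor of most tissues, was at 5.73, 5.86 and 6.33 in the adenomas, at 3.61, 6.20, 5.98 and 5.06 in FP-high, and at 5.42, 5.78 and 6.07 in FP-low. Its difference from normal was 0.47 ± 0.41, and 0.20 ± 0.23 without FP-high replicate 1, on which it was lowest. Egln2 was at 4.78, 4.92 and 4.95 in the adenomas, at 5.14, 5.13, 5.0 and 5.09 in FP-high, and at 4.92, 5.19 and 5.94 in FP-low. The adenomas lay under all FP-high arrays and overlapped FP-low, with a difference from normal of -0.29 ± 0.18 (limma adjusted p = 0.573).

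Epas1, the second oxygen-regulated alpha subunit, was at 4.91, 5.36 and 5.26 in the adenomas, at 4.85, 5.46, 5.75 and 4.95 in FP-high, and at 4.90, 5.23 and 5.39 in FP-low. All groups overlapped, and the difference from normal was -0.05 ± 0.19 (limma adjusted p = 0.916). Arnt, the constant partner of both subunits, was at 5.25, 5.50 and 5.72 in the adenomas, at 5.07, 5.64, 5.50 and 5.50 in FP-high, and at 5.03, 5.69 and 6.14 in FP-low, with a difference of -0.04 ± 0.21. Vhl, which presents hydroxylated subunits for breakdown, was at 4.86, 5.04 and 4.50 in the adenomas, at 4.02, 4.73, 4.73 and 4.82 in FP-high, and at 2.75, 4.61 and 4.73 in FP-low. Its difference from normal was 0.36 ± 0.36, and 1 low array in each normal group widened the spread. The plot of single arrays shows the leading genes of this and the next groups.

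**Figure D1:**
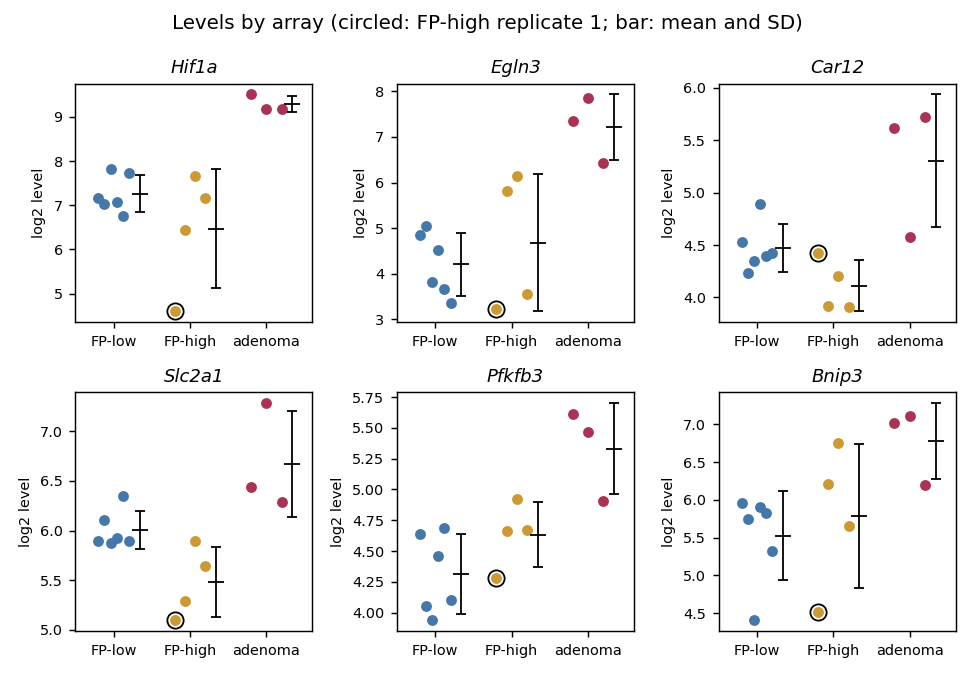
The log2 level (vertical axis) of 6 members on each of the 13 arrays, with 1 point per array, the bar giving the mean and SD of each group and a ring marking FP-high replicate 1. For Hif1a the adenomas sit between 9.18 and 9.51 and for Egln3 between 6.44 and 7.85, above all normal arrays, while for Car12, Slc2a1, Pfkfb3 and Bnip3 the lowest adenoma overlaps normal epithelium.

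Of the 13 hypoxia targets outside glycolysis, 10 had higher means in adenomas than in normal epithelium, with a median difference of 0.37, and 0.20 without FP-high replicate 1; none passed the adjusted threshold, and Car12 and Bnip3 were those under an unadjusted p of 0.05. Car12, a membrane carbonic anhydrase that handles acid at the cell surface, was at 5.62, 4.58 and 5.72 in the adenomas, at 4.42, 3.92, 4.20 and 3.91 in FP-high, and at 4.23, 4.41 and 4.89 in FP-low. Adenomas 1 and 3 stood above every normal array and adenoma 2 did not. The difference from normal was 1.01 ± 0.23 (limma adjusted p = 0.0639), and it passed without FP-high replicate 1, at 1.07 ± 0.22 (0.0295), and without adenoma 2, at 1.38 (0.00699). Against FP-high alone it was 1.19 ± 0.26 (limma adjusted p = 0.0592), 1.30 (0.0414) without FP-high replicate 1 and 1.56 (0.00768) without adenoma 2, and against FP-low alone it passed without adenoma 2 (1.20, 0.0298). The related Car9, a classic hypoxia marker, was at 6.36, 6.19 and 6.01 in the adenomas, at 4.30, 5.40, 6.54 and 5.46 in FP-high, and at 4.33, 5.74 and 5.93 in FP-low. The adenomas lay above FP-low but not above FP-high 3, and the difference of 0.81 ± 0.44 did not pass (limma adjusted p = 0.532). Without FP-high replicate 1 it was 0.62 ± 0.39.

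Bnip3, which targets mitochondria for removal, was at 7.02, 7.11 and 6.20 in the adenomas, at 4.52, 6.21, 6.75 and 5.65 in FP-high, and at 4.41, 5.78 and 5.96 in FP-low. Every adenoma exceeded FP-low, whereas FP-high 2 and 3 reached into the adenoma range. The difference from normal was 1.12 ± 0.42 (limma adjusted p = 0.358), or 0.91 ± 0.34 without FP-high replicate 1. A second probe set of Bnip3 gave 2.0 ± 0.64 (0.249) on all arrays. Its homologue Bnip3l differed by 0.77 ± 0.50, and by 0.45 ± 0.29 without FP-high replicate 1. Ankrd37, a small ankyrin-repeat protein induced by hypoxia, was at 6.64, 6.63 and 6.61 in the adenomas, at 5.50, 7.06, 6.51 and 6.53 in FP-high, and at 5.28, 5.62 and 6.42 in FP-low. Adenomas were nearly identical to each other and lay above FP-low, inside the FP-high range. The difference from normal was 0.55 ± 0.29, or 0.40 ± 0.22 without FP-high replicate 1.

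P4ha1, a collagen prolyl hydroxylase, was at 4.46, 4.76 and 4.70 in the adenomas, at 3.81, 4.16, 4.00 and 4.15 in FP-high, and at 3.83, 4.14 and 5.27 in FP-low. Only FP-low replicate 3 reached above the adenomas, and the difference from normal was 0.48 ± 0.24 (limma adjusted p = 0.507). The remaining targets lay closer to 0. Kdm3a, a histone demethylase, differed by 0.37 ± 0.38. Ndrg1, a stress-induced gene, differed by 0.22 ± 0.31 and Ddit4, an inhibitor of mTOR signalling, by 0.16 ± 0.23. Without FP-high replicate 1 these were 0.20 for Kdm3a, 0.04 for Ndrg1 and 0.05 for Ddit4. Vegfa, the angiogenic growth factor, differed by 0.08 ± 0.20 and P4ha2, the second collagen hydroxylase, by -0.0029 ± 0.18. Adm, a vasodilator peptide, differed by -0.07 ± 0.12 and Mxi1, an antagonist of Myc, by -0.17 ± 0.18. The best known target, Vegfa, spanned 5.77 to 5.92 in the adenomas, within the FP-low range of 5.21 to 6.01.

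Among the 6 genes of transport and flux control, Slc2a1 and Pfkfb3 showed the larger differences, and none passed the threshold on all arrays. Slc2a1, the glucose transporter GLUT1, was at 6.44, 7.28 and 6.29 in the adenomas, at 5.10, 5.29, 5.89 and 5.64 in FP-high, and at 5.87, 5.91 and 6.35 in FP-low. The adenomas lay above all of FP-high, and adenoma 3 fell below the highest FP-low array. The difference was 1.19 ± 0.25 from FP-high (limma adjusted p = 0.0508), 0.66 ± 0.23 from FP-low (0.424) and 0.93 ± 0.22 from their average (0.0799). The difference from FP-high passed without FP-high 3 (1.33, limma adjusted p = 0.0314). Pfkfb3, which makes the strongest activator of phosphofructokinase, was at 5.61, 5.47 and 4.91 in the adenomas, at 4.28, 4.66, 4.92 and 4.67 in FP-high, and at 3.94, 4.28 and 4.69 in FP-low. The adenomas exceeded FP-low, and adenoma 3 lay just below FP-high 3. The difference from normal was 0.86 ± 0.21 (limma adjusted p = 0.0988), and that from FP-low was 1.01 ± 0.22 (0.0842), or 0.0304 without FP-high replicate 1 in a fit whose adenoma and FP-low means are the same and whose estimate of spread is smaller. It also passed without adenoma 3 (1.23, limma adjusted p = 0.0482).

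Slc16a3, which exports lactate, was at 5.70, 5.53 and 4.95 in the adenomas, at 5.43, 4.95, 5.30 and 4.87 in FP-high, and at 4.81, 4.90 and 5.05 in FP-low, with a difference from normal of 0.37 ± 0.17 (limma adjusted p = 0.471). Adenoma 3 lay among the normal arrays. Slc2a3, the neuronal type glucose transporter, was at 3.95, 3.89 and 3.71 in the adenomas, at 4.11, 4.05, 4.14 and 4.11 in FP-high, and at 3.77, 4.11 and 4.24 in FP-low. Its difference was -0.24 ± 0.12, opposite in sign to that of Slc2a1, and the adenomas lay below all FP-high arrays. Pdk1, which holds pyruvate back from the mitochondria, differed by 0.20 ± 0.40, and Pfkfb4, a relative of Pfkfb3, by -0.19 ± 0.19.

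Of the 14 glycolytic enzymes 9 had higher means in adenomas than in normal epithelium, with a median of 0.19. On all 13 arrays none had an unadjusted p under 0.05 (limma). Without FP-high replicate 1, 5 of the 14 had higher means in adenomas and 9 lower, with a median of -0.05. In that limma fit 1 enzyme, Eno2, met the unadjusted threshold, and it was lower in adenomas. Ldha, which turns pyruvate into lactate, ranged over 6.92 to 8.67 in the adenomas and 7.36 to 8.98 in FP-low, while FP-high replicate 1 lay at 4.42 and the other FP-high arrays at 7.80 to 8.63. Its difference of 0.40 ± 0.71 became -0.07 ± 0.41 without that array. The same turn occurred for aldolase Aldoa, from 0.34 ± 0.53 to -0.04 ± 0.22, and for the platelet type phosphofructokinase Pfkp, from 0.39 ± 0.72 to -0.06 ± 0.46. Pgk1, the first ATP-forming step, went from 0.40 ± 0.48 to 0.08 ± 0.23, and the triose isomerase Tpi1 from -0.02 ± 0.56 to -0.40 ± 0.29.

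Hk2, the inducible hexokinase, was at 4.79, 5.25 and 5.56 in the adenomas, at 4.02, 4.61, 5.18 and 4.98 in FP-high, and at 4.51, 5.10 and 5.71 in FP-low, with a difference from normal of 0.31 ± 0.27. Hk1, the constitutive hexokinase, was at 11.46, 11.40 and 11.38 in the adenomas, at 9.67, 11.58, 11.41 and 11.31 in FP-high, and at 11.17, 11.47 and 11.70 in FP-low. That probe set is annotated by an accession which 17 other probe sets share, 16 of them also annotated to the ribosomal protein gene Rpl17, so its level cannot be assigned to Hk1 alone. The other Hk1 probe set, at a mean of 4.21, gave the same difference from normal, 0.18 ± 0.16. Eno2, the neuronal enolase, was at 3.78, 3.58 and 3.90 in the adenomas, at 5.32, 4.16, 3.94 and 3.94 in FP-high, and at 3.86, 4.24 and 4.58 in FP-low. The adenomas lay below all of FP-high, and the difference was -0.53 ± 0.26 (limma adjusted p = 0.494), or -0.37 ± 0.15 (0.235) without FP-high replicate 1.

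The other enzymes did not pass the test either. Pkm, pyruvate kinase, differed by 0.57 ± 0.37, but a second probe set of the gene gave -0.0049 ± 0.47. Phosphoglycerate mutase Pgam1 differed by 0.19 ± 0.24 and Aldoc, the brain aldolase, by 0.19 ± 0.25. The liver and muscle phosphofructokinases Pfkl and Pfkm differed by -0.15 ± 0.16 and -0.24 ± 0.19, and Ldhb, the heart type lactate dehydrogenase, by -0.18 ± 0.15. Pfkm in the adenomas (4.14 to 4.28) lay just below FP-low (4.29 to 4.79), and Ldhb (3.71 to 3.94) just below FP-high (3.96 to 4.34). For adenomas against normal epithelium, the several probe sets of Pgk1, Pgam1, Bnip3l and Ldhb differed from the ones used by less than their SE.

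**Figure D2:**
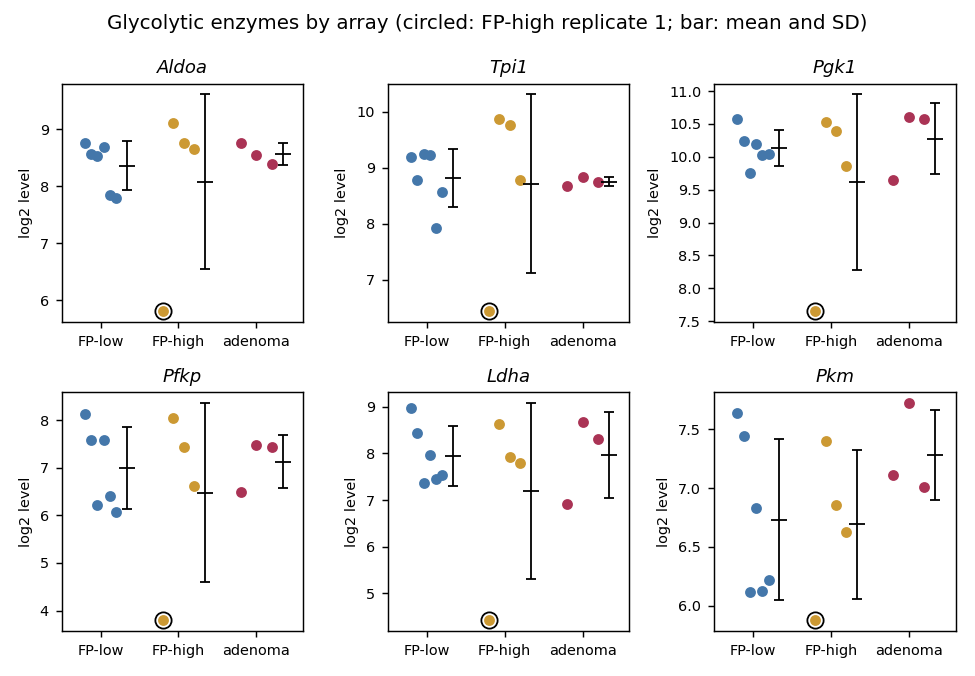
The log2 level (vertical axis) of 6 glycolytic enzymes on each of the 13 arrays, with 1 point per array, the bar giving the mean and SD of each group and a ring marking FP-high replicate 1. That array is the lowest for all 6 genes, at 4.42 for Ldha and 5.81 for Aldoa, and the adenomas overlap FP-low and the other FP-high arrays.

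Over all members, 1 of 40 (2.5%) passed between adenomas and normal epithelium, Hif1a, against 0.91% of all 23410 probe sets tested. Of those 213 probe sets 207 were higher and 6 lower in adenomas, and after quantile normalization the split was 186 and 38. At an unadjusted p under 0.05 there were 7 members (17.5%), all higher in adenomas, against a background of 10.6%, or 5.98% for higher ones; these were Hif1a, Egln3, Car12, Slc2a1, Pfkfb3, Bnip3 and Slc16a3. In all, 27 of 40 (67.5%) had a difference above 0, with a median of 0.26, while 38.1% of all probe sets did, and the median over all probe sets was -0.09. That background depended on level. With dim probe sets left out, the median was 0.05 over all probe sets kept and 0.37 over the 29 members kept. With FP-high replicate 1 left out, 23 of the 40 members were above 0 and the median was 0.06. Egln3, Hif1a and Car12 were then called (7.5%) against a background of 2.08%. By role, the medians without that array were 0.20 for oxygen sensing, 0.20 for targets outside glycolysis, 0.35 for transport and flux control and -0.05 for the glycolytic enzymes.

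Members were also counted by whether their arrays overlapped. Egln3 and Hif1a (5%) lay above all normal arrays, against 1.93% of all probe sets, and no member lay below all of them, against 2.04%. Above every FP-low array were 6 members (15%), Egln3, Hif1a, Car9, Ankrd37, Bnip3 and Pfkfb3, against 3.67% of probe sets, and below was Pfkm (2.5%), against 5.64%. Above every FP-high array were 5 members (12.5%), Egln3, Hif1a, Car12, P4ha1 and Slc2a1, against 6.74%, and below were Egln2, Slc2a3, Eno2 and Ldhb (10%), against 10.4%. Against FP-low alone no member passed (limma, background 0.551%), with 8 (20%) at an unadjusted p under 0.05, all higher in adenomas, against 7.45%, or 4.24% for higher ones. Against FP-high alone Hif1a passed (2.5%, background 0.765%), with 6 (15%) at an unadjusted p under 0.05, all higher in adenomas, against 15.7%, or 8.38% for higher ones. Those comparisons share the adenoma arrays and are not independent of one another.

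**Figure D3:**
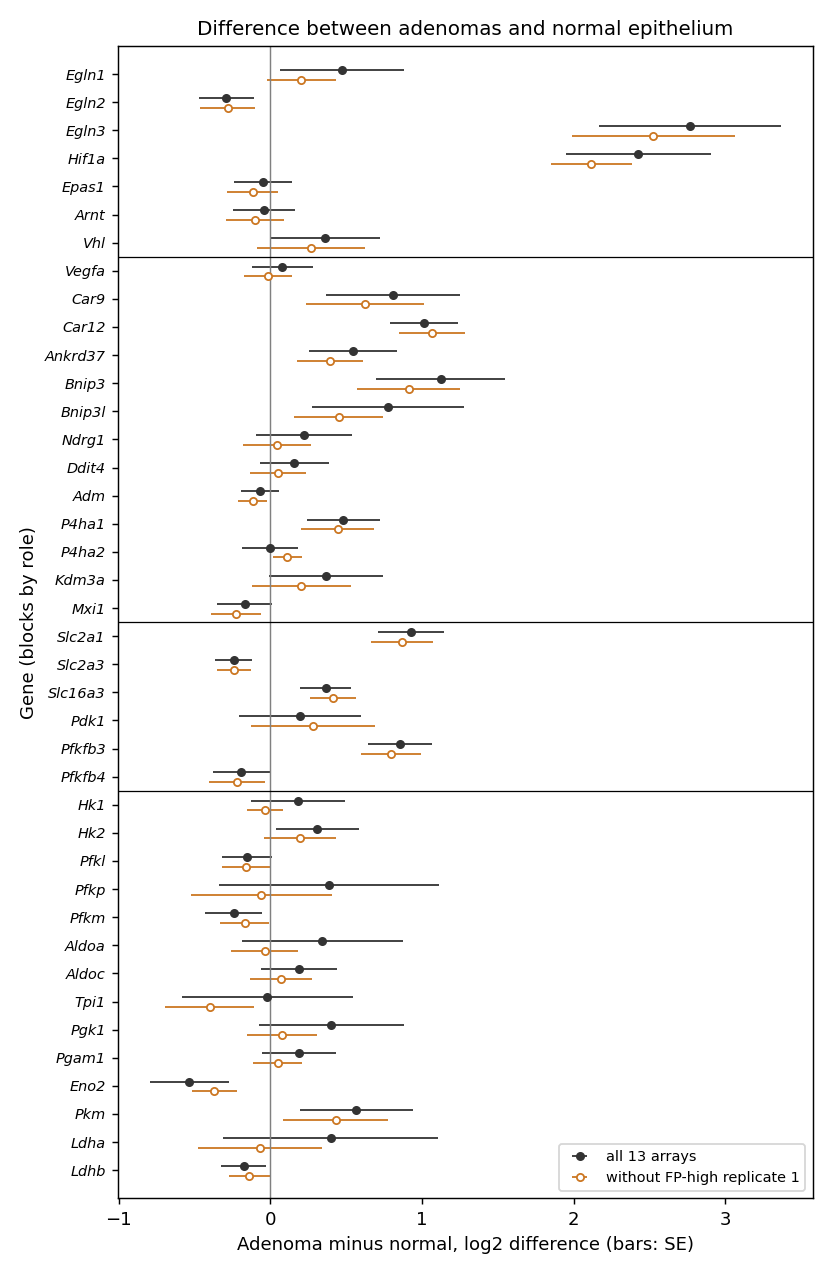
Adenoma minus normal log2 difference (horizontal axis) of the 40 members in blocks by role, with bars of 1 SE; filled points use all 13 arrays and open points leave out FP-high replicate 1. Egln3 and Hif1a lie at 2.77 and 2.43, and the open points of the glycolytic enzymes in the lowest block gather about their median of -0.05.

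Between FP-high and FP-low normal epithelium no member passed the threshold, and the background was also 0% (0 of 23410 probe sets by limma). That background count rests on single arrays: it was 136 without FP-high 3 (130 lower in FP-high), 12 without FP-high 2, 6 without FP-high 4 and 1 without FP-low 3 or FP-low 6, while no member was called in any of these fits. At an unadjusted p under 0.05 there were 2 members (5%) against 12.7% of all probe sets. Slc2a1 was lower in FP-high by 0.53 on the log2 scale (difference -0.53 ± 0.21, limma adjusted p = 0.388) and Ankrd37 was higher by 0.63 ± 0.28 (0.39). FP-high and FP-low arrays overlapped for all 40 members, whereas 2.25% of all probe sets did not overlap. Without FP-high replicate 1 the Ankrd37 difference was 0.94 ± 0.23 (limma adjusted p = 0.255), and that of Slc2a1 was -0.40 ± 0.21. The next members in order of p were Hif1a at -0.79 ± 0.46, Car12 at -0.36 ± 0.22, Hk1 at -0.49 ± 0.30, Pfkfb3 at 0.32 ± 0.20, Egln1 at -0.58 ± 0.40 and Hk2 at -0.39 ± 0.27. The Hk1 value is that of the probe set whose accession is shared with Rpl17, and the other Hk1 probe set gave 0.21 ± 0.16, opposite in sign.

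FP-high replicate 1 carried much of this pattern. On all arrays 25 of 40 members were lower in FP-high, with a median of -0.15. Over all probe sets the median was 0.05 and 56.3% were above 0. That background depended on level. With dim probe sets left out, the median was -0.23 over all probe sets kept and -0.21 over the 29 members kept. Of the 14 glycolytic enzymes 12 were lower (median -0.17), with Hk1 among them only on the probe set used. Pgam1 was lower on the probe set used (-0.21 ± 0.24), while another of its probe sets gave 0.05 ± 0.21. Leaving FP-high replicate 1 out, 23 members were higher, the median was 0.07, and 9 of the 14 enzymes were higher, with a median of 0.13. The difference of Hif1a shrank to -0.17 ± 0.28, that of Hk1 to -0.05 ± 0.12 and that of Egln1 to -0.05 ± 0.24. In all, 12 members changed the sign of their difference. On that array 33 members lay below the FP-low mean and 7 above it, Eno2 and P4ha2 by the most, as the heat map shows.

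**Figure D4:**
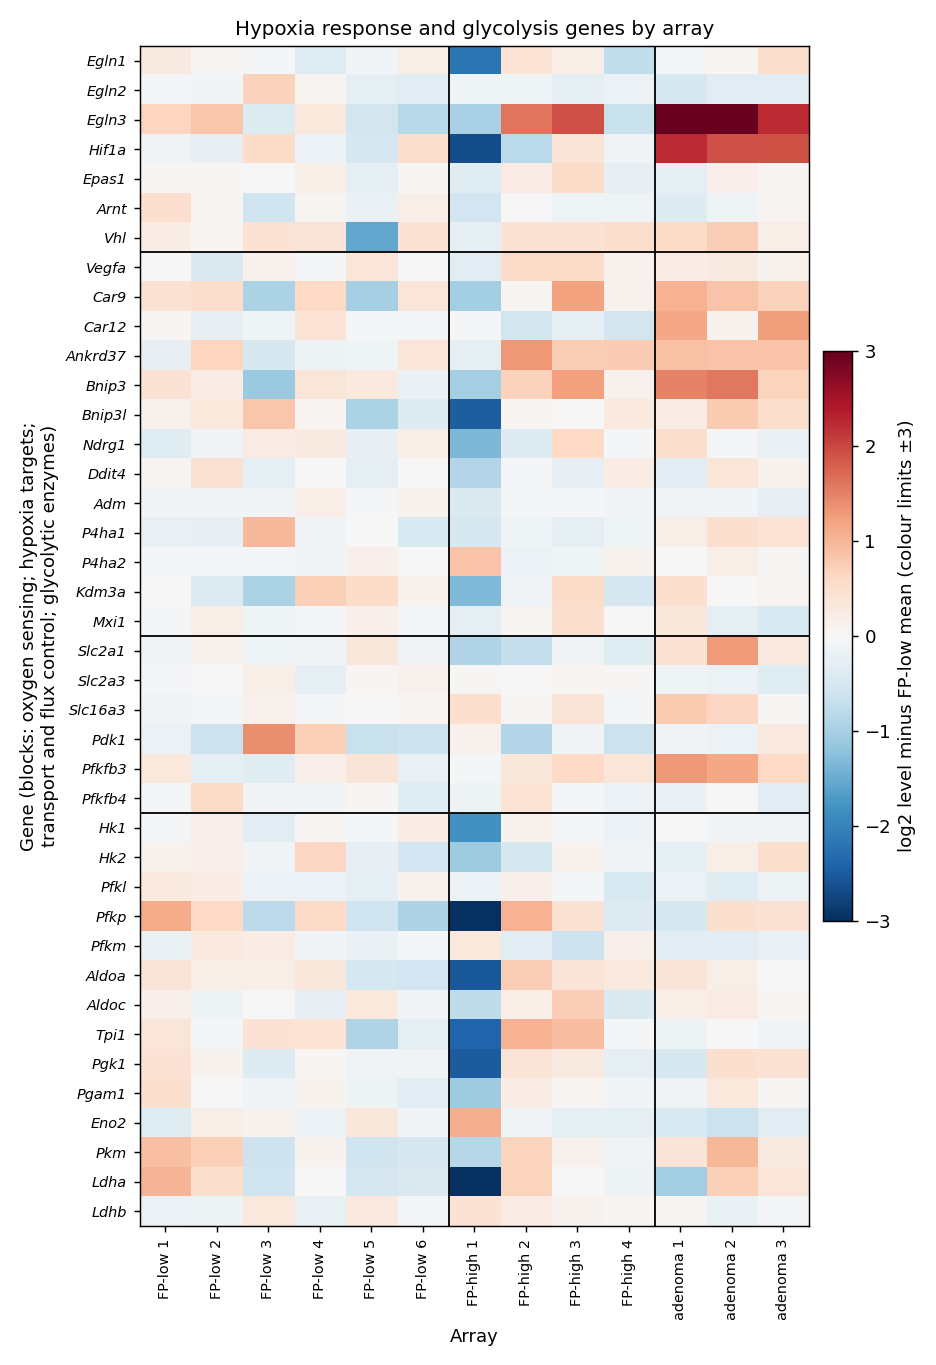
Log2 level minus the FP-low mean (colour, limits ±3) of the 40 members in rows by role, for each of the 13 arrays in columns. Egln3 and Hif1a are dark red in all 3 adenomas, and FP-high replicate 1 is blue for most members, with a median deviation of -0.66.

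Several members are paralogs that do the same step, and the difference between the members of a pair within each array shows whether they moved by unequal amounts. Relative to the FP-low mean, Epas1 minus Hif1a was 0.84 ± 1.11 (SD, n = 4) in FP-high and -2.05 ± 0.42 (SD, n = 3) in adenomas. Slc2a3 minus Slc2a1 was 0.56 ± 0.33 in FP-high and -0.89 ± 0.49 in adenomas. Pfkfb4 minus Pfkfb3 was -0.30 ± 0.33 and -1.20 ± 0.29. In these 3 pairs, alone among those compared, every adenoma lay below every normal array. How often unrelated pairs do so was not counted. They mostly restate Hif1a, Slc2a1 and Pfkfb3, since Epas1, Slc2a3 and Pfkfb4 differed from normal epithelium by -0.05, -0.24 and -0.19. Slc2a3 and Pfkfb4 were also dim, at mean levels of 4.03 and 4.04 against a median of 4.64 over all probe sets tested. Egln3 minus Egln1 was 1.06 ± 0.70 in FP-high and 2.83 ± 1.00 in adenomas, where the lowest adenoma (1.69) lay just under the highest FP-high array (1.75). The pairs of phosphofructokinase, aldolase and lactate dehydrogenase subunits overlapped in all groups. These are descriptions of unequal change and were not tested.

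**Figure D5:**
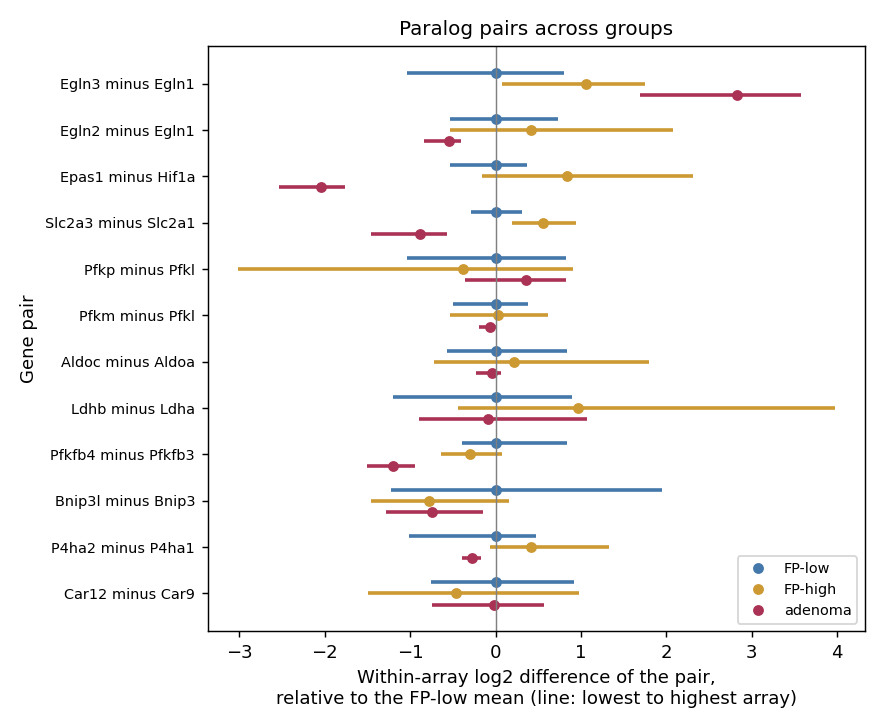
Within-array log2 difference of 12 pairs of related members relative to the FP-low mean (horizontal axis), with points for the group mean and lines from the lowest to the highest array. The adenomas lie to the left of both normal groups for Epas1 minus Hif1a (-2.05), Slc2a3 minus Slc2a1 (-0.89) and Pfkfb4 minus Pfkfb3 (-1.20).

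Other genes of the pathway were read from lists drawn up by function, with earlier results of these data known. Of 28 measured hypoxia-induced genes outside the set, 16 (57.1%) were higher and 12 lower in adenomas, while 38.1% of all probe sets were above 0. At an unadjusted p under 0.05 (limma), 8 were higher and 1 lower (32.1%), against 10.6% of all probe sets. In this list 1 gene was called (3.57%, against 0.91%), Trf, the iron carrier transferrin. Trf rose by 1.93 ± 0.19 (limma adjusted p = 0.000175), from 4.90 ± 0.34 (SD, n = 6) in FP-low and 4.92 ± 0.06 (SD, n = 4) in FP-high to 6.84 ± 0.33 (SD, n = 3). Higd1a, a hypoxia-induced mitochondrial protein, differed by 1.54 ± 0.41 (limma adjusted p = 0.136), and passed without FP-high replicate 1 (0.0147). Of 15 regulators of the factor, 11 were higher and none was called; the closest were Rbx1, a subunit of the ligase that Vhl recruits to, at 0.58 ± 0.28, and the deubiquitinase Usp20 at -0.26 ± 0.15. Of 21 further genes of glycolysis and pyruvate use, 16 were lower and none was called, with Slc2a2, the GLUT2 transporter, at -0.76 ± 0.27 (limma adjusted p = 0.317) and Bpgm at 0.72 ± 0.40.

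All 9 gluconeogenesis genes had lower means in adenomas than in normal epithelium, with a median of -0.38, but none was called; over all probe sets 38.1% were above 0. Against FP-high alone 2 of the 9 were higher, and none without FP-high replicate 1. Of 11 enterocyte markers 9 were also lower in adenomas than in normal epithelium, with none called. Against FP-high alone 9 of the 11 were lower (median -0.88), and against FP-low alone 5 were (median 0.13). All 9 gluconeogenesis genes were lower against FP-low alone (median -0.49). The part of enterocyte content in the gluconeogenesis differences was not tested. Fbp1, which opposes phosphofructokinase, was at 5.18 ± 0.78 (SD, n = 6) in FP-low, 5.17 ± 0.59 (SD, n = 4) in FP-high and 3.57 ± 0.36 (SD, n = 3) in adenomas, a difference of -1.60 ± 0.40 (limma adjusted p = 0.108). Pcx, pyruvate carboxylase, differed by -0.36 ± 0.15 (0.435). Between FP-high and FP-low no gene of these lists passed: 13 of 15 regulators of the factor were lower, 9 of 15 without FP-high replicate 1. Elob, which links Vhl to its ligase, differed by -1.35 ± 0.38 (limma adjusted p = 0.263) and the ubiquitin ligase Siah1a by -0.86 ± 0.40. Pdk3, a pyruvate dehydrogenase kinase, differed by -1.01 ± 0.20 (limma adjusted p = 0.142), and by -1.07 without FP-high replicate 1. Dld, a shared subunit of the pyruvate and oxoglutarate dehydrogenases, differed by -0.87 ± 0.43, Nampt, which makes NAD, by -0.99 ± 0.43 and the transferrin receptor Tfrc by -1.03 ± 0.53. The gluconeogenic genes with the smallest p there were Pcx at 0.28 ± 0.15 and Got1 at -1.07 ± 0.66.

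Proliferation and stroma were measured beside these results. All 19 cell cycle genes had lower means in FP-high than in FP-low, with a median of -1.14, and -0.95 without FP-high replicate 1. Over all probe sets 56.3% were above 0. At an unadjusted p under 0.05 (limma) 16 of the 19 (84.2%) were lower, against 12.7% of all probe sets, or 7.95% for lower ones. Without FP-high replicate 1 there were 13 (68.4%). None was called, in a comparison where no probe set was. The closest were Hmmr at -1.14 ± 0.19 (limma adjusted p = 0.118) and Mcm4 at -1.23 ± 0.23 (0.14). In adenomas 17 of the 19 were lower than in FP-low (median -0.41) and 17 were higher than in FP-high (median 0.84, or 0.49 without FP-high replicate 1). Against the average of both, 12 were higher (median 0.17), and none was called in any of these comparisons; the smallest p-values there were those of Hmmr, at 0.45 ± 0.19, and Cenpe, at 0.69 ± 0.31. Of 12 fibroblast markers 5 were higher and 7 lower in adenomas, and 2 were called: Dcn at 2.36 ± 0.45 (limma adjusted p = 0.0277) and Sparc at 1.30 ± 0.24 (0.0253), while the collagen Col1a1 differed by -0.04 ± 0.14. The mean of the fibroblast list ran from 4.29 to 4.55 in FP-low, 4.40 to 4.64 in FP-high and 4.42 to 4.98 in adenomas. Of 9 T lymphocyte markers 1 was higher, the pan-leukocyte gene Ptprc, which was called at 0.79 ± 0.16 (limma adjusted p = 0.0393); the list's mean ran from 3.96 to 4.64, 4.15 to 4.65 and 4.06 to 4.32 in FP-low, FP-high and adenomas. Endothelial (12 genes, 4.08 to 4.33, 4.12 to 4.50 and 4.19 to 4.31) and macrophage lists (12 genes, 4.10 to 4.36, 4.24 to 4.39 and 4.10 to 4.27) had no call. Neutrophil (9 genes, 3.21 to 3.56, 3.41 to 4.19 and 3.23 to 4.21) and smooth muscle lists (8 genes, 3.83 to 4.26, 3.94 to 4.45 and 3.90 to 4.49) had none either, and log2 array levels have no zero at which a marker could be called absent. The part of stromal or immune cells in the differences of Hif1a and Egln3 was not tested.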

How the data were processed

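Each of the 13 deposited columns holds log2 levels for 35556 probe sets, made by the authors with Affymetrix software: the Command Console per the design text, and Affymetrix Expression Console and Transcriptome Analysis Console per the submitters' processing notes. Not given in the sources used here are versions, background correction, normalization and summarisation. Per the labels' protocols, RNA was extracted with NucleoSpin RNA XS and amplified and labelled with NuGEN kits; amplification from little RNA can distort levels.

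The 23410 probe sets with a gene symbol in the platform annotation were fitted with limma 3.58.1 in R 4.3.3 (lmFit, eBayes, two-sided) on all 13 arrays in 3 groups, with a common spread for each probe set, and p-values were adjusted by Benjamini-Hochberg over all of them. The script was tested on simulated data. A call is an adjusted p under 0.05. Exactly 1 symbol was given for 21789 probe sets and several for 1621, which were tested but not named. Of the former, 21698 matched RefSeq by Entrez identifier. Of the members, 33 had 1 probe set and 7 had several.

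The members and lists were chosen with earlier results of these data known. Values by array are printed for members called in any comparison, the 12 with the smallest p between adenomas and normal epithelium, the 8 with the smallest p between FP-high and FP-low, and the genes of oxygen sensing; of other pathway lists, called genes and the 2 with the smallest p in each of those comparisons are named.

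Replicate numbers recur across groups. Deviations from the group means of same-numbered FP-high and adenoma arrays correlated at 0.233, 0.102 and 0.22, over the bound of 0.1 set for pairing. Of differently numbered pairs of these groups, FP-high 2 with adenoma 3 reached 0.204, and the others ran from -0.247 to 0.048. FP-high 3 with FP-low 4 reached 0.347, while same-numbered pairs with FP-low ran from -0.361 to 0.178. Neither these values nor the labels settle which arrays are paired. The replicate block, which also covers FP-low, was therefore run only as an alternative. Alternatives were quantile normalization, array weights, the replicate block, fits of only the groups compared, leaving out dim probe sets, all probe sets, eBayes with trend and robust, the mean of a gene's probe sets, and leaving out each array.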

Additional observations from a re-analysis of the deposited data

Results flagged for a closer look

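Each member's highest and lowest array was compared with the rest of its group in FP-high and FP-low, 80 groups in all, by Dixon's test at 95%. Chance marks about 1 in 20 groups, and 9 of the 80 were marked, 6 of them by FP-high replicate 1. The adenomas, with 3 arrays, could not be tested.

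FP-high replicate 1 was far below its group for Vhl (4.02 against 4.73 to 4.82), Bnip3l (5.31 against 7.79 to 8.06), Adm (3.70 against 4.04 to 4.09), Hk1 (9.67 against 11.31 to 11.58) and Aldoa (5.81 against 8.65 to 9.10), and far above it for Eno2 (5.32 against 3.94 to 4.16). FP-low replicate 5 was far below its group for Vhl (2.75 against 4.36 to 4.73) and for Epas1 (4.90 against 5.21 to 5.39). FP-low replicate 3 was far above its group for P4ha1 (5.27 against 3.83 to 4.31).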

How the results depend on the processing

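No member reversed a call under any alternative run. The count of members called moved as follows, from 1 for adenomas against normal epithelium, 0 against FP-low and 1 against FP-high. Array weights, which gave FP-high replicate 1 a weight of 0.065, called 5, 4 and 2 members. Calls over all probe sets rose as well, to 4.93%, 3.71% and 2.54%. With these weights the median over members against FP-high became 0.0558. With eBayes trend and robust the counts were 3, 2 and 2, against 0.987%, 0.683% and 0.982% of all probe sets. Leaving out dim probe sets kept 29 members and called 2 against normal and 2 against FP-high. Of all probe sets kept, 1.21% and 1.35% were called there. Fitting only the groups compared called 2 against FP-low (Egln3 and Hif1a), with a background of 1.47%, and 0 against FP-high, with a background of 0.196%. Against FP-high, quantile normalization and the test of all probe sets called 0 (backgrounds of 0.701% and 0.478%), and the mean of a gene's probe sets called 2 (background 0.807%). With the replicate block 0 members were called in any comparison; it ended the calls of Hif1a (2.51, limma adjusted p = 0.146 against normal; 2.91 and 0.123 against FP-high) and changed no other call. Over all probe sets, calls between adenomas and normal epithelium numbered 213, and 1153 with array weights, 67 with the replicate block and 488 without FP-high replicate 1.

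Leaving out 1 array at a time gave 0 to 3 members called against normal, 0 to 3 against FP-low and 0 to 2 against FP-high. Over all 23410 probe sets the calls in these fits numbered 92 to 488, 78 to 370 and 72 to 281. The median over members ran from 0.0123 to 0.4776 against FP-high and from -0.2362 to 0.0721 between FP-high and FP-low, the ends of 0.0123 and 0.0721 being those without FP-high replicate 1. That omission changed the sign of 12 members' differences between FP-high and FP-low, 6 against normal and 10 against FP-high. Reading Hk1 from its other probe set, an alternative chosen after seeing the data, changed no count of calls. The causes were not tested. With 3 to 6 arrays a group, the unknown summarisation and amplification from single crypts, small differences of dim genes cannot be resolved.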
